A study of Mus musculus with 3 samples.

Results

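Glucose and related sugars enter cells through carrier proteins. Expression of 10 genes for such carriers was examined in the CPE, the choroid plexus epithelium, which covers the choroid plexus in the ventricles of the brain and makes cerebrospinal fluid. The genes were *Slc2a1*, *Slc2a3*, *Slc2a4*, *Slc2a5*, *Slc2a8*, *Slc2a10*, *Slc2a12*, *Slc5a1*, *Slc5a2* and *Slc5a3*. They were chosen by name, and every probe that carried one of these names on the array was taken, which gave 14 probes. The array held 27845 gene or transcript names in all. Of the 14 probes, 12 matched the same gene symbol in RefSeq by their accession, and 0 other probes matched a member under another name.

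The CPE of 3 healthy adult female C57BL/6 mice (mouse 1, 2 and 3) was cut with a laser from the lateral ventricles in frozen, cresyl violet stained brain sections. The amplified RNA carried the red dye Cy5 and was hybridised on an Agilent whole mouse genome array against 1 common reference. This was wild type RNA from tissue at the back of the eye, namely choroid with retinal pigment epithelium (RPE), and it was labelled with the green dye Cy3 for each array. Without a dye swap, a preference of a probe for a dye remains in every ratio. The reference is 1 RNA that holds several cell types, and it is a common standard of this design and not a control group.

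The members come from 2 families. The SLC2 proteins, called GLUT, let sugars pass down their concentration gradient, while the SLC5 proteins, called SGLT or SMIT, use the sodium gradient to take sugar or myo-inositol into the cell. GLUT1, the product of *Slc2a1*, is the main glucose carrier of barrier tissues such as the blood vessels of the brain, the choroid plexus and the RPE. GLUT4, the product of *Slc2a4*, is known for moving to the cell surface of muscle and fat cells when insulin acts on them.

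In the CPE, the probes of *Slc2a12* and *Slc2a1* were among the brightest on the array, at percentiles 99.4 and 98.8 of all probes. Against the RPE and choroid reference they went opposite ways. *Slc2a12* was 12.3-fold higher in the CPE, and *Slc2a1* was 4.82-fold higher in the reference. Both probes of *Slc2a8* were higher in the CPE, 2.23-fold and 2.27-fold. The only tested probe of *Slc2a3* was 2.13-fold higher in the reference. The probes of the sodium-coupled carriers lay at 1.14 to 3.15 times the median negative control in the CPE. Some SLC2 probes lay in that range too. The tested *Slc2a3* probe lay at 2.64, 2.35 and 2.19 times in mice 1, 2 and 3, and that of *Slc2a10* at 1.91, 1.35 and 2.76 times. No tested probe of the sodium-coupled carriers passed the threshold in either direction, and that of *Slc5a2* was not tested.

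These values come from limma's moderated test of the mean log2 ratio of CPE over reference against 0, with n = 3 mice and Benjamini-Hochberg adjustment over 25838 tested probes. The threshold was an adjusted p under 0.05 together with a 2-fold change or more. It was tested when it was well above background, by the scanner's own flag, on all 3 arrays in at least 1 channel, which 10 of the 14 probes, of 8 genes, were. Of these, 6 met this in both channels and 4 in the reference alone (*Slc2a10*, *Slc5a3* and both of *Slc5a1*). Of these 10 probes, 3 were past the threshold and higher in the CPE and 2 were past it and lower, where the shares among all tested probes were 7.09% and 10.2%. Counted by genes, with the brightest probe of each, 2 of 8 members were higher and 2 of 8 lower, where the shares among 17680 tested genes were 8.13% and 11.2%. The median log2 ratio of the 8 tested members was 0.07, beside a median of -0.04 over all tested probes. In bulk RNA such as this, fewer cells that express a gene and less RNA per cell cannot be told apart.

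**Figure D1:**
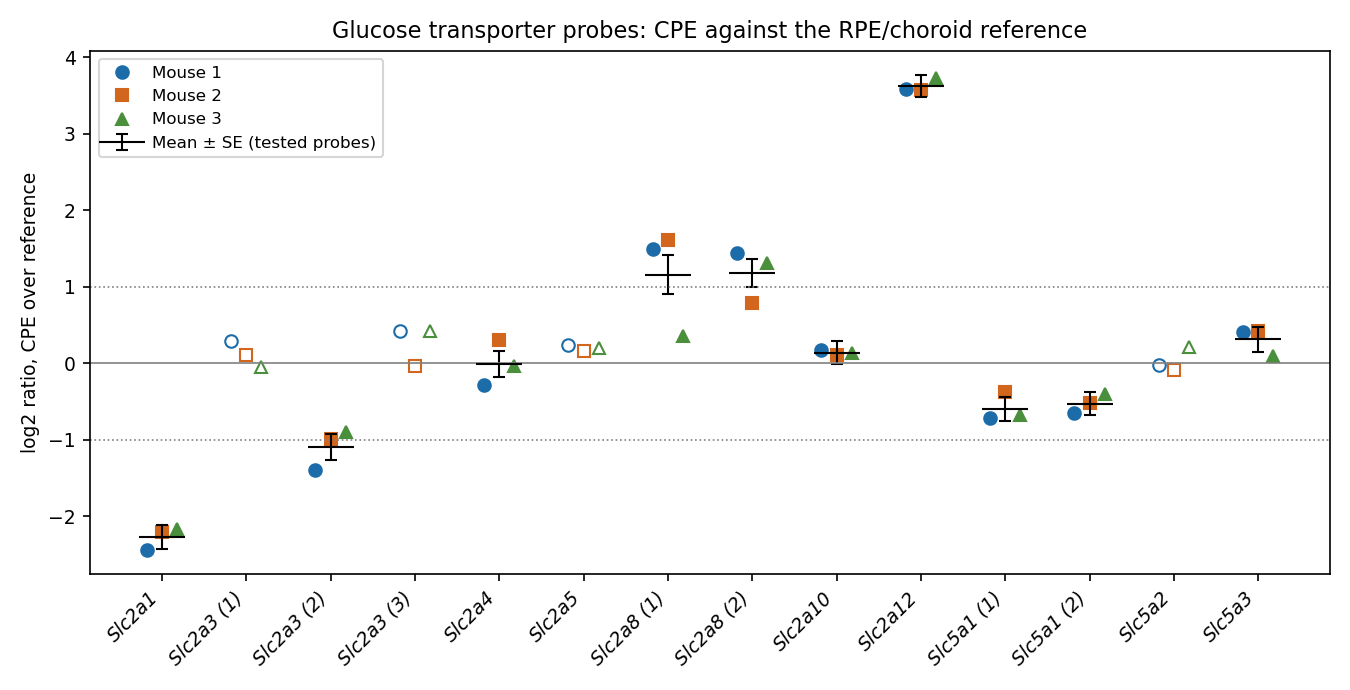
The log2 ratio of CPE over reference after background correction and loess is plotted for each mouse at each of the 14 probes. Filled symbols are tested probes, open symbols are probes that were not tested, bars are the mean and limma's standard error, and dotted lines mark a 2-fold change. Probes of 1 gene are numbered, and only *Slc2a12* (mean 3.62) and *Slc2a1* (mean -2.27) lie far outside the dotted lines in all 3 mice.

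The arrays and the tissue set the frame for these values. The array of mouse 3 stood apart, with 85.6% of probes well above background in the CPE channel against 58.5% and 46.0% in mice 1 and 2. The median of its 314 negative control probes was 357 in the CPE channel, against 77.5 and 78.1, and 229 in the reference channel, against 108 and 105. Intensities here are mean spot intensities in the scanner's arbitrary units, before background correction, and those of dim probes on the array of mouse 3 are read against that higher floor. Of 11 CPE markers, all 11 were in the high expression class and 9 were past the threshold and higher in the CPE, among them *Kl*, *Htr2c* and *Kcne2*, while *Otx2* and *Slc4a5* were not. Of 9 markers of RPE and melanocytes 8 were past the threshold and higher in the reference, as were 8 of 8 markers of photoreceptors, 6 of 7 of striated muscle, 5 of 6 of stroma and 4 of 9 of macrophages and microglia. For astrocytes and ependyma 3 of 6 were higher in the reference and 1 in the CPE, and for oligodendrocytes 1 of 4 was higher in the CPE. A lower ratio did not mean a dim probe in the CPE, where the high class held 5 of 6 stroma markers. Markers of other cell types were in that class too, and not all of them had lower ratios. The median log2 ratio was 0.38 for endothelium and 0.63 for oligodendrocytes. The high class held 4 of 11 markers of endothelium, 3 of 9 of macrophages and 2 of 4 of red blood cells. It also held 2 of 9 of RPE and melanocytes, 2 of 6 of astrocytes, 2 of 5 of oligodendrocytes and 1 of 8 of photoreceptors. It held 0 of 8 neuronal and 0 of 7 muscle markers.

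*Slc2a12* codes for GLUT12, a facilitative carrier of glucose. Its probe (chr10:22393146-22393205, plus strand, mouse build mm8) had intensities of 26888, 20633 and 20577 in the CPE of mice 1, 2 and 3. The reference channel gave 1004, 1077 and 960 on the same arrays. The channels did not overlap, and the uncorrected CPE intensity was 26.8, 19.2 and 21.4 times that of the reference. After background correction and loess the log2 ratios were 3.58, 3.57 and 3.72, a spread of 0.09 (SD, n = 3). Their mean was 3.62 (SE 0.15, 95% confidence interval 3.27 to 3.97, limma adjusted p = 8.1e-06), which is 12.3-fold (9.68-fold to 15.7-fold). Median centring in place of loess gave a log2 ratio of 4.41, the highest under any alternative, and the lowest was 3.54.

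*Slc2a1* codes for GLUT1. Its probe (chr4:118635191-118635250, plus strand) had CPE intensities of 14948, 14344 and 10992 in mice 1, 2 and 3, and reference intensities of 31163, 32044 and 26467. It was thus bright in both channels on all 3 arrays, with no overlap between them. It ranked at percentile 98.8 in the CPE and at 99.9 in the reference. The uncorrected reference intensity was 2.08, 2.23 and 2.41 times that of the CPE. The log2 ratios after loess were -2.44, -2.20 and -2.16, with a mean of -2.27 (SE 0.15, 95% confidence interval -2.63 to -1.91, limma adjusted p = 4.8e-05). The size of this difference moved with the normalization, since median centring in place of loess gave -1.33, while its direction and call did not change under any alternative tried.

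Other cell types could be read beside these ratios from their markers. The summed intensity of 9 markers of RPE and melanocytes was 5859 to 11146 in the CPE channel and 150468 to 173656 in the reference. That of 8 photoreceptor markers was 6010 to 10328 in the CPE and 120967 to 135342 in the reference. For 11 endothelial markers it was 14287 to 28487 in the CPE and 11068 to 13965 in the reference, and 2 of them were past the threshold and higher in the CPE and 1 lower. For 4 markers of red blood cells it was 27102 to 55282 in the CPE and 95903 to 103291 in the reference, and 3 of 4 were past the threshold and lower in the CPE. All 11 endothelial markers were well above background in the CPE of all mice. For 6 markers of stroma the summed intensity was 23875 to 40100 in the CPE and 77610 to 95565 in the reference. The part of these cells in the *Slc2a1* and *Slc2a12* ratios was not tested.

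**Figure D2:**
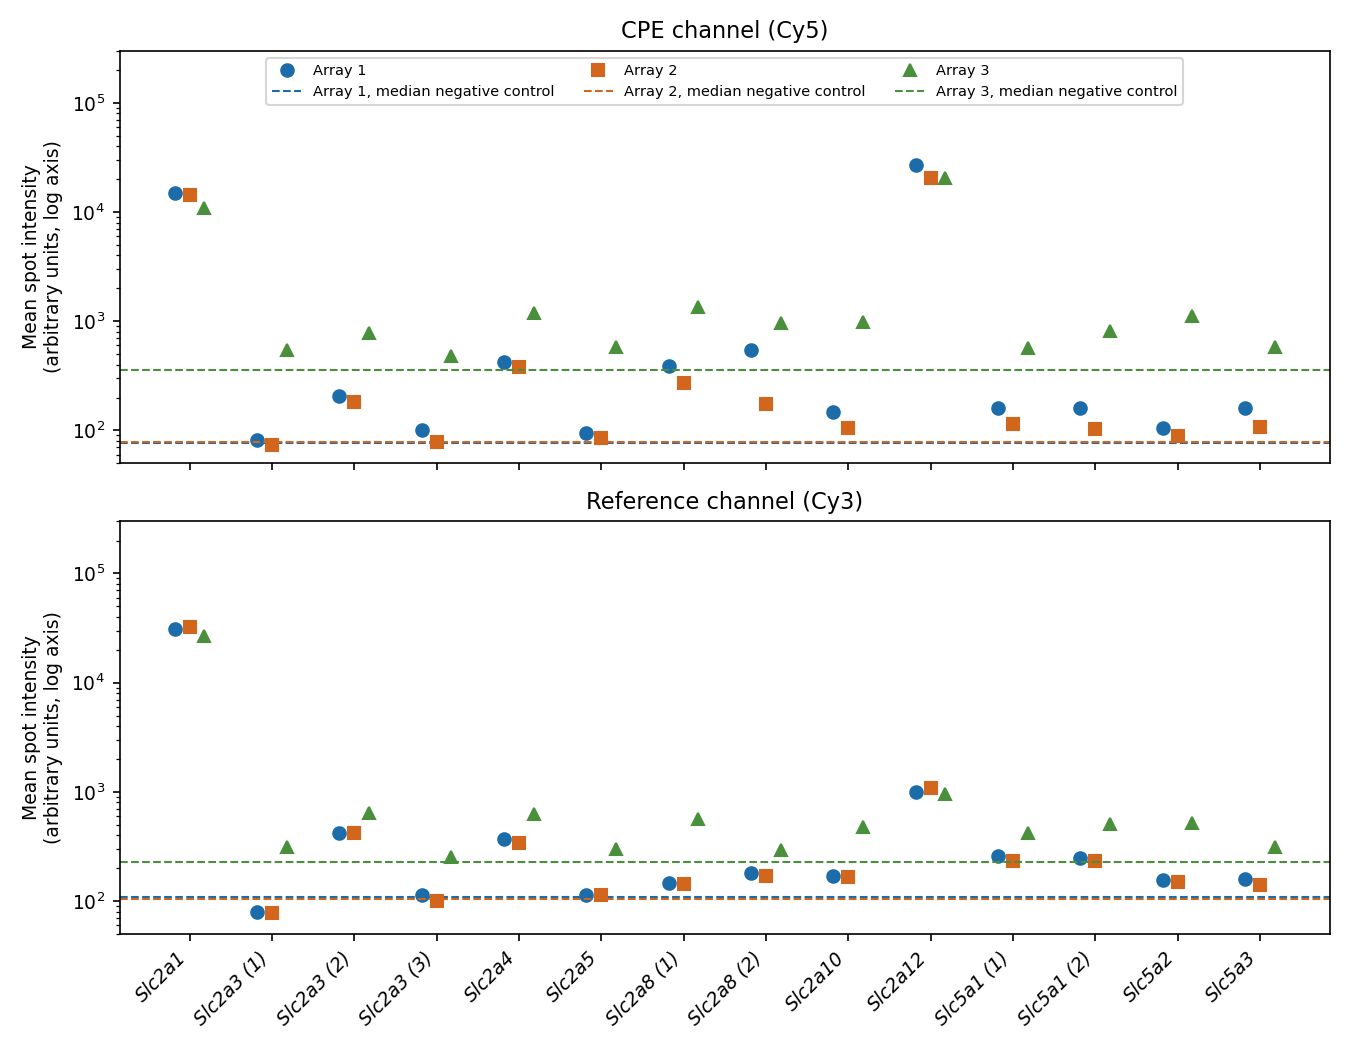
Mean spot intensity is plotted on a log axis in arbitrary units, without background correction, for the 14 probes on each array, with the CPE channel in the upper panel and the reference channel in the lower. Dashed lines are the median of the negative control probes of each array. *Slc2a1* and *Slc2a12* stand far above these lines in the CPE on all arrays, while the other probes lie closer to them and are raised on the array of mouse 3 together with its controls.

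*Slc2a8* codes for GLUT8, a carrier held mostly in membranes inside the cell. It was measured by 2 probes on the minus strand of chromosome 2, one (chr2:32795181-32795240) closer to the 3′ end of the gene than the other (chr2:32798201-32798260). The 3′-ward probe gave CPE intensities of 391, 269 and 1340 and reference intensities of 145, 145 and 566. The CPE was brighter than the reference on each array, although the mouse 3 reference exceeded the CPE of mice 1 and 2. Its log2 ratios were 1.50, 1.62 and 0.36, with a mean of 1.16 (SE 0.25, limma adjusted p = 0.00969). The 5′-ward probe gave CPE intensities of 547, 174 and 961 and reference intensities of 179, 170 and 291. Its log2 ratios were 1.45, 0.79 and 1.31, with a mean of 1.18 (SE 0.18, limma adjusted p = 0.00197).

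Both *Slc2a8* probes were thus above 0 in 3 of 3 mice, but the lowest mouse was mouse 3 at the 3′-ward probe and mouse 2 at the 5′-ward one. The confidence intervals, 0.57 to 1.75 and 0.76 to 1.60, both reach below the 2-fold line, and limma's treat test against a 2-fold change called neither. The 3′-ward probe fell under 2-fold without mouse 1 (log2 ratio 0.99) or without mouse 2 (0.93), and the 5′-ward one with no background correction (0.93). With the scanner software's own log ratio the 3′-ward probe gave 1.80 and the 5′-ward one 2.69.

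*Slc2a3* codes for GLUT3, best known as the glucose carrier of neurons. It had 3 probes, and 1 of them was tested (chr6:122693676-122693735, minus strand). Its CPE intensities were 205, 183 and 781, and its reference intensities were 416, 423 and 645. The reference was brighter in mice 1 and 2, and the CPE in mouse 3, where the negative controls of the CPE channel were raised too. After correction the log2 ratios were -1.40, -0.99 and -0.89, with a mean of -1.09 (SE 0.17, 95% confidence interval -1.48 to -0.70, limma adjusted p = 0.00205). The call was lost under no background correction (-0.97), median centring (-0.85), the treat test and without mouse 1 (-0.94). Neuronal markers were lower in the CPE as well, with 4 of 8 past the threshold, and a summed intensity of 2242 to 6393 in the CPE against 14721 to 16581 in the reference. Their part in the *Slc2a3* ratio was not tested.

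The other *Slc2a3* probes were well above background on the array of mouse 3 alone. The one at chr6:122703374-122703433 had CPE intensities of 101, 77.8 and 485, and the one at chr17:83362051-83362111, on another chromosome than the tested probe, had 82.2, 74.1 and 542. In mice 1 and 2 these lay at 1.31, 0.997, 1.06 and 0.949 times the median negative control. They ranked at percentiles 22.6 and 12.1, and the tested probe at 63.1. The log2 ratios of the other chromosome 6 probe were 0.42, -0.04 and 0.43, with a mean of 0.27. Those of the chromosome 17 probe were 0.29, 0.11 and -0.05, with a mean of 0.12. Both means were of the opposite sign to that of the tested probe, but these dim probes were not tested.

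*Slc2a4* codes for GLUT4. Its probe (chr11:69758766-69758825, minus strand) was flagged well above background in both channels in every mouse, with CPE intensities of 424, 380 and 1191 and reference intensities of 366, 340 and 629. The log2 ratios of -0.28, 0.31 and -0.04 lay on both sides of 0. Their mean was -0.003 (SE 0.17, 95% confidence interval -0.40 to 0.40, limma adjusted p = 0.991), an interval that leaves room for a change of up to 1.32-fold either way. Its sign turned under median centring (0.34), with the scanner's log ratio (0.067) and without mouse 1 or mouse 3. Striated muscle, a tissue that uses GLUT4, left markers in the reference, where 7 of them summed to 8379 to 9447 against 1644 to 6484 in the CPE. Their part in this ratio was not tested.

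*Slc2a10* codes for GLUT10, which is linked to the health of the arterial wall. Its probe (chr2:165210418-165210477, plus strand) was well above background in the CPE of mice 1 and 3 only. CPE intensities were 148, 106 and 983 and those of the reference were 169, 166 and 472. The uncorrected CPE intensity was 0.877, 0.638 and 2.09 times that of the reference. Only after background correction and loess were the log2 ratios, 0.17, 0.12 and 0.14, close to each other. Their mean of 0.14 (SE 0.15, 95% confidence interval -0.20 to 0.49, limma adjusted p = 0.492) was not past the threshold. *Slc2a5* codes for GLUT5, the fructose carrier. Its probe (chr4:148987466-148987525, plus strand) had CPE intensities of 93.9, 86.1 and 586 and was not tested, since only the array of mouse 3 measured it well above background, in either channel.

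Among the sodium-coupled genes, *Slc5a1* codes for SGLT1, the glucose carrier of the gut lining. It had 2 probes whose starts lie within the same stretch of chromosome 5, chr5:33478560-33478619 and chr5:33478769-33478828, both on the plus strand. The first had CPE intensities of 162, 114 and 567 and reference intensities of 259, 233 and 417, and the second 162, 103 and 808 in the CPE and 250, 231 and 511 in the reference. Both were well above background in the CPE of mice 1 and 3 and in the reference on all arrays. Both thus entered the test through the reference channel alone. That route favours ratios below 0, so their sign is no separate evidence of a lower level in the CPE. The log2 ratios of the probes were below 0 in 3 of 3 mice, with means of -0.59 (SE 0.16, limma adjusted p = 0.0208) and -0.52 (SE 0.15, limma adjusted p = 0.0286). Both had an adjusted p under 0.05 but were under 2-fold, so they were not past the threshold. With the scanner's own log ratio they were, at -1.07 and -1.09.

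*Slc5a2* codes for SGLT2, the glucose carrier of the kidney tubule. Its probe (chr7:128063319-128063378, plus strand) had CPE intensities of 105, 88.6 and 1124 and reference intensities of 155, 151 and 517. It was well above background on the array of mouse 3 alone, in both channels, and was not tested. Its log2 level in the CPE had an SD of 1.31, the widest among the 14 probes, and its percentile of 55.8 fell to 37.2 without mouse 3.

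*Slc5a3* codes for SMIT1, which carries myo-inositol, an osmolyte, and is the one member that is not chiefly a sugar carrier. Its probe (chr16:91967980-91968039, plus strand) had CPE intensities of 162, 107 and 580 and reference intensities of 159, 141 and 315. The log2 ratios were 0.41, 0.42 and 0.10 and their mean was 0.31 (SE 0.16, 95% confidence interval -0.05 to 0.68, limma adjusted p = 0.156). RefSeq places *Slc5a3* where it overlaps *Mrps6*, a gene for a protein of the mitochondrial ribosome. The brightest *Mrps6* probe ranked at percentile 98.4 in the CPE, with a log2 ratio of 0.90 (SE 0.15), while the *Slc5a3* probe ranked at 48.7.

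The study sorted expression into 4 classes by percentile rank of the level. Here the log2 mean red intensity of each probe was normalized between arrays and averaged over mice, and each probe took its rank among all others. High means above percentile 90, moderate 50 to 90, low 10 to 50 and very low below 10. A rank places a probe on the array and does not order genes by abundance, because probes differ in how well they bind. Of the 14 probes 2 were high, 7 moderate, 5 low and 0 very low, and 2 of 10 genes had a high probe, where the share among all genes was 12.7%.

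The log2 level of *Slc2a12* was 14.46 ± 0.06 (SD, n = 3), and its percentiles in the 3 mice lay between 99.3 and 99.5. That of *Slc2a1* was 13.71 ± 0.13 (SD, n = 3), with percentiles between 98.6 and 99.1. The moderate class held *Slc2a4* at 76.0, *Slc2a8* at 75.7 and 69.5, 1 of 3 probes of *Slc2a3* at 63.1, *Slc2a10* at 58.7, *Slc5a2* at 55.8 and 1 probe of *Slc5a1* at 55.3. The low class held the other *Slc5a1* probe at 47.9, *Slc5a3* at 48.7, *Slc2a5* at 29.3 and the remaining *Slc2a3* probes. Between neighbouring ranks from *Slc2a10* down to *Slc5a1* the order was not stable, since the mice spread from 50.4 to 62.9 at the *Slc5a1* probe in the moderate class and from 34.5 to 75.3 at *Slc5a2*.

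Ranks in the middle of the scale also depended on what they were set against. Among only those probes that were well above background in the CPE on all 3 arrays, *Slc2a12* and *Slc2a1* stayed high, at 98.7 and 97.4. The other 4 of 6 such probes moved to the low class, *Slc2a4* to 46.5, *Slc2a8* to 45.8 and 32.3, and *Slc2a3* to 19.4. Without mouse 3, 4 of 14 probes changed class, with *Slc5a1* (53.5) and *Slc5a3* (53.7) becoming moderate, *Slc5a2* (37.2) low and the chromosome 17 probe of *Slc2a3* (3.14) very low. That *Slc2a3* probe was also very low in the authors' deposited log2 table (5.83) and after normexp (9.92), and *Slc5a3* was moderate in the deposited table (50.8), so that 2 and 1 of 14 probes changed class there.

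**Figure D3:**
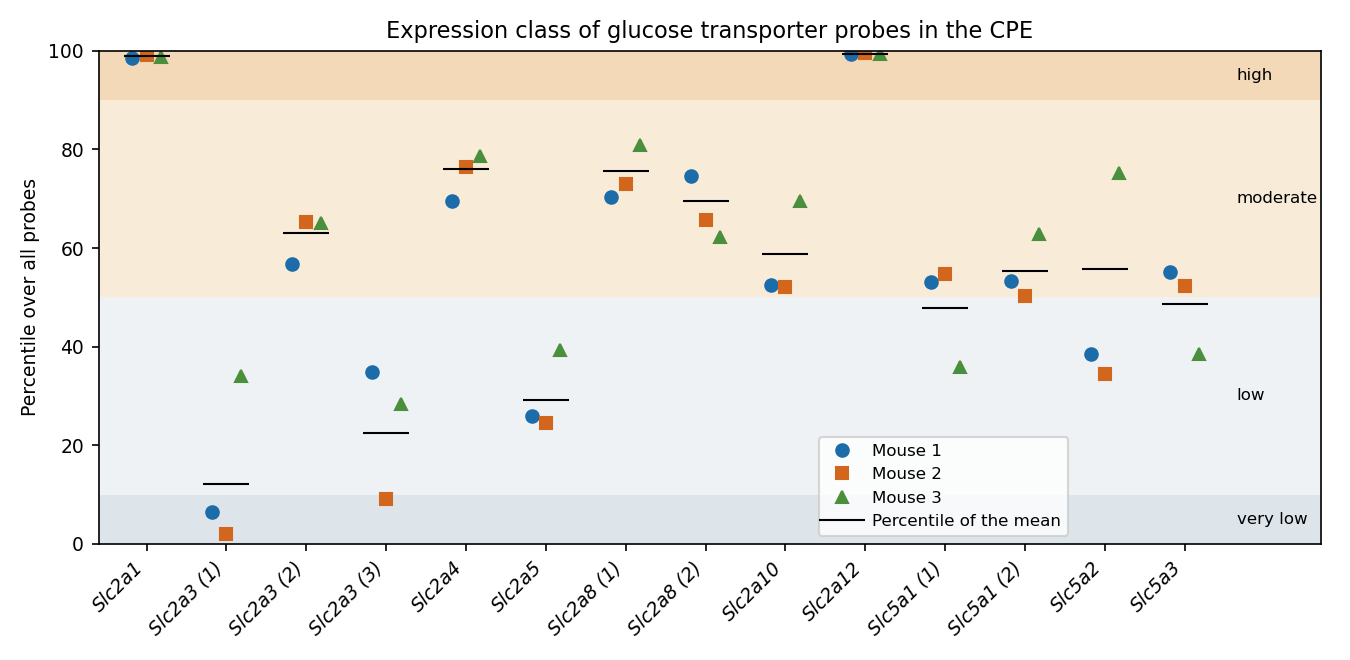
The percentile of each of the 14 probes among all probes on the array is plotted for each mouse, with a black line for the percentile of the mean level over the 3 mice and shaded bands for the 4 expression classes. *Slc2a1* and *Slc2a12* lie in the high band in all 3 mice, and *Slc5a2* spans the low and moderate bands.

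Sequence upstream of the start is shown for the members with the largest ratio in each direction, *Slc2a12* and *Slc2a1*, and for *Slc2a8*, whose probes were both higher in the CPE. The windows are from RefSeq on build GRCm38.p6, run 5′ to 3′ on the strand of the gene, and hold 229 bases each. Each ends 21 bases short of the annotated start it was built on. The cut keeps every annotated start of these genes outside the windows, and another such start can lie closer to the end. The windows are chr10:22644761-22644989 on the plus strand for *Slc2a12*, chr2:32982105-32982333 on the minus strand for *Slc2a8* and chr4:119108495-119108723 on the plus strand for *Slc2a1*. Capitals mark matches, on either strand, to the CCAAT box (CCAAT), the GC box (GGGCGG), the E-box (CACGTG) or the OTX motif (TAATCC).
*Slc2a12*: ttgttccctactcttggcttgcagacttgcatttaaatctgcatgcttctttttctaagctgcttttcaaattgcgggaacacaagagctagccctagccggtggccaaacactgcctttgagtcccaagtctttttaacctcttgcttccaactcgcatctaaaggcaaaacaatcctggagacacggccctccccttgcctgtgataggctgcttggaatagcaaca
*Slc2a8*: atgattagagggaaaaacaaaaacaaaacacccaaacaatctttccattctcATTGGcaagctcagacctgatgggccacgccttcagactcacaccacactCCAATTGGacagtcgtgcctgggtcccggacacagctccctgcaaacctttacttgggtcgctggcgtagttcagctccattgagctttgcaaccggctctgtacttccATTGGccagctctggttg
*Slc2a1*: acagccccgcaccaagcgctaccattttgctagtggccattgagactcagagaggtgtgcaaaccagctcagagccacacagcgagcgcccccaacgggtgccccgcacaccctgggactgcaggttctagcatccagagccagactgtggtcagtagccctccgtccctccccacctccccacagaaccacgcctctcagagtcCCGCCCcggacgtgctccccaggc

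The *Slc2a8* window held 4 matches to the CCAAT box, of which one pair overlaps on opposite strands, and the *Slc2a1* window held 1 match to the GC box. The *Slc2a12* window held none of the 4 motifs. Of the 10 members 7 had a window in the table. The CCAAT box was in 2 of 7 (*Slc2a8* and *Slc2a10*) against 32.0% of 32851 windows of this length, the GC box in 4 of 7 (*Slc2a1*, *Slc2a5*, *Slc2a10* and *Slc5a3*) against 29.7%, the E-box in 1 of 7 (*Slc5a1*) against 5.3% and the OTX motif in 0 of 7 against 5.9%. The GC content was 47.6% in *Slc2a12*, 51.1% in *Slc2a8* and 64.6% in *Slc2a1*. A match is a run of letters and does not show that a factor binds there.

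The other genes of the same families were read from the same fit. For the counts of this and the following lists, the shares among all tested genes were 8.13% higher in the CPE and 11.2% lower. Of 5 other SLC2 genes 4 were on the array and 2 were tested, and neither was past the threshold. *Slc2a13*, for the proton-coupled myo-inositol carrier HMIT, was flagged well above background in both channels in every mouse, with log2 ratios of -0.80, -0.27 and -1.30 and a mean of -0.79 (SE 0.21). Of 10 other SLC5 genes 5 were tested, 2 were past the threshold and higher in the CPE and 1 was lower. *Slc5a6*, for the sodium-dependent multivitamin carrier, was higher by a log2 ratio of 1.55 (SE 0.15) and ranked at percentile 96.1. *Slc5a5*, for the iodide carrier of the thyroid, was higher by 1.06 (SE 0.20), and *Slc5a8*, for a carrier of lactate and other short acids, had -1.33 (SE 0.27). The *Slc5a8* probe was well above background in the CPE of mice 1 and 3 only and was tested through the reference channel, and its log2 ratios were -1.97, -1.54 and -0.49. *Slc5a10* had 0.23 (SE 0.15) and was not past the threshold.

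The enzymes that first act on imported sugar were measured better, with 12 of 12 genes tested, of which 1 was past the threshold and higher in the CPE and 2 lower. The hexokinases, which trap glucose in the cell by adding a phosphate, differed from each other. *Hk2* had log2 ratios of -3.63, -3.66 and -3.36, so that the reference was 11.7-fold higher (mean -3.55, SE 0.16), while *Hk1* ranked at percentile 97.6 in the CPE with a ratio of 0.07 (SE 0.15). *Galk1*, the galactose kinase, was higher in the CPE by 1.51 (SE 0.16). *Akr1b3*, the aldose reductase that turns glucose into sorbitol, had -1.17 (SE 0.15). The median log2 ratio of the 12 enzymes was 0.11.

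Genes of insulin signalling and GLUT4 vesicle traffic were split, with 3 of 13 tested genes past the threshold and higher in the CPE and 3 lower, and a median log2 ratio of 0.19. The probe of *Insr*, the insulin receptor gene, was well above background on the array of mouse 3 alone and was not tested. *Irs2* was not found on the array. *Stxbp3a*, whose product binds syntaxin at the cell surface, had 1.28 (SE 0.15), the kinase gene *Akt2* 1.09 (SE 0.17) and the insulin receptor substrate gene *Irs1* 1.05 (SE 0.16). *Tbc1d1*, a regulator of the small G proteins of vesicle traffic, had -1.61 (SE 0.30), the vesicle membrane gene *Vamp2* -1.09 (SE 0.15) and *Lnpep*, the aminopeptidase that travels with GLUT4, -1.06 (SE 0.20).

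Of 10 regulators of the amount of glucose carriers, 0 were past the threshold and higher in the CPE and 2 were lower, with a median log2 ratio of -0.34. The lower ones were *Pdzk1ip1*, for a small membrane protein that binds SGLT2, at -1.98 (SE 0.15), and *Hif1a*, for the oxygen-sensing transcription factor, at -1.08 (SE 0.15). Of 8 tested genes in a list drawn up for osmolytes and myo-inositol, 1 was higher and 1 lower, with a median of -0.37. This list also held *Mrps6*, included as the gene that overlaps *Slc5a3*, and *Slc2a13*, which was counted among the other SLC2 genes too. *Isyna1*, the enzyme that makes myo-inositol phosphate from glucose phosphate, was higher by 2.05 (SE 0.17) and ranked at percentile 97.6. *Slc6a6*, for the taurine carrier, had -4.71 (SE 0.18), so that the reference was 26.2-fold higher.

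**Figure D4:**
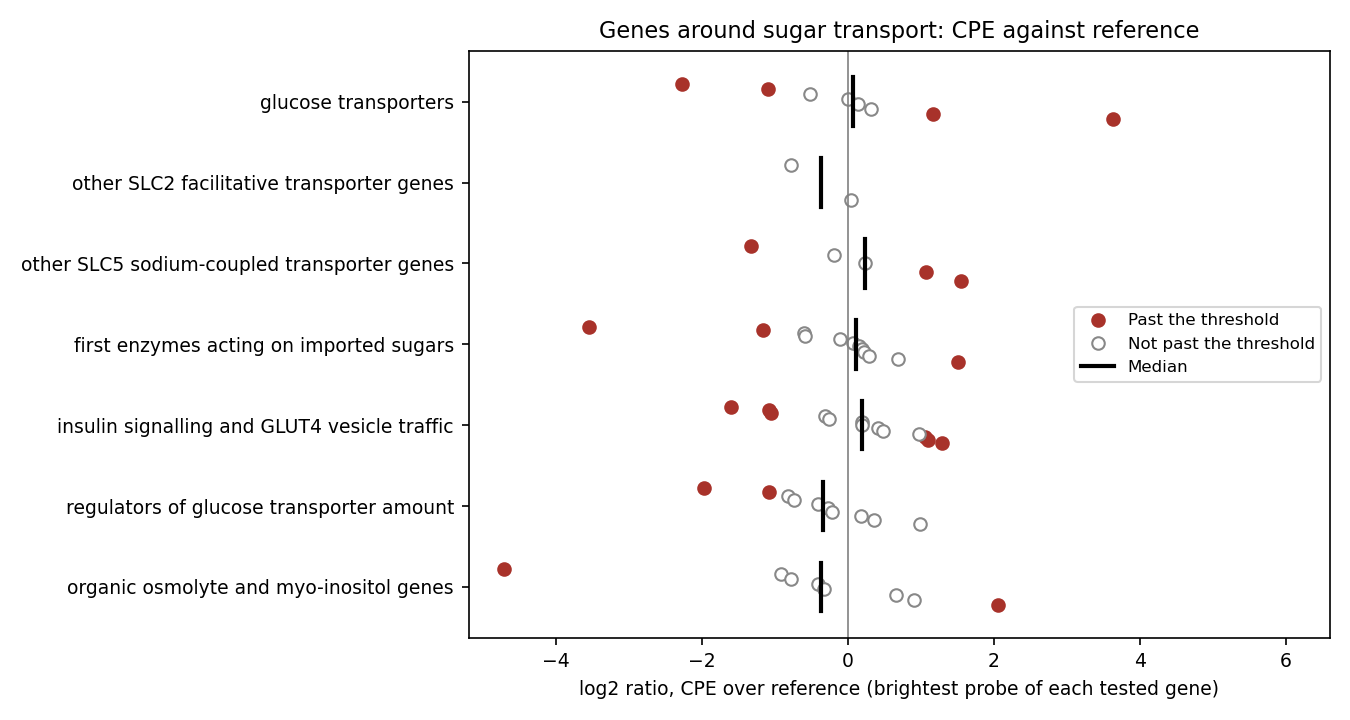
Each point is the log2 ratio of CPE over reference of the brightest probe of 1 tested gene, for the glucose transporters and 6 lists of genes around them. Filled red points are past the threshold, open points are not, and black lines are the median of each list. Medians lie between -0.37 and 0.23, and *Slc2a12* at 3.62 is the highest point shown and *Slc6a6* at -4.71 the lowest.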

How the data were processed

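The authors read the arrays with Agilent Feature Extraction 9.5.3.1. The deposited scanner tables give each spot's intensity on a linear scale in both channels, its background intensity and flags, and a log10 ratio of processed red over green intensity per the file headers. A deposited log2 table, normalized between arrays with Aquantile by the authors in R 2.14.0 with limma, was an alternative for the ranks. Here, R 4.3.3 and limma 3.58.1 were used. After removal of control and outlier spots and averaging of repeated spots, 41174 probes were left. Ratios used normexp with an offset of 50 and loess. Classes used the log2 mean red intensity after Aquantile with no background correction. The limma model held an intercept alone and 3 arrays, each on its own slide. The error holds the spread between mice and no biological spread of the reference, and the number of arrays limits the precision. The test was run on simulated ratios with independent noise and known changes. That simulation held no dye preference, raised background or filter by channel, so it cannot speak to these. The members, lists, motifs and alternatives were chosen with earlier results of these data known. Named genes were all members, up to 3 genes past the threshold in each direction and list by size of ratio, the other SLC2 and SLC5 genes well above background in the CPE on all arrays, and up to 3 genes of a marker list. *Otx2*, *Slc4a5*, *Hk1*, *Mrps6*, *Insr* and *Irs2* fall outside this rule and were named after their values were seen. The brightest probe over both channels stood for a gene that is not a member. Coordinates of probes follow the scanner files, on build mm8, for which no annotation was used here, so exons are not given.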

Additional observations from a re-analysis of the deposited data

How the results depend on the processing

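Over the 10 alternatives for the ratios, *Slc2a12* and *Slc2a1* kept their direction and their call, with log2 ratios of 3.54 to 4.41 and -2.33 to -1.33. Of 3 probes past the threshold and higher in the CPE, 1 remained against limma's treat test of a 2-fold change. With no background correction 2 remained, and 2 to 3 when a mouse was left out. Of 2 lower probes, 1 remained with no background correction, with median centring and with treat, 1 to 2 when a mouse was left out, and the scanner software's log ratio called 4. The *Slc2a4* ratio changed sign under median centring (0.34), with the scanner's log ratio (0.067), and when a mouse was left out (leave-one-out values from -0.16 to 0.13, with 0.014 without mouse 3), and was not called in any of these. Testing all probes, testing only those well above background in both channels, and weighting the arrays did not move either count. Median centring in place of loess moved the median log2 ratio of all tested probes from -0.04 to 0.09 and the share of calls that were higher in the CPE from 41.1% to 67.0%. The number of members with a high probe was 2 under every alternative for the ranks. Each ratio sets the CPE against the reference on the same array. No pairing between mice applied, because the 3 mice form 1 group. Signal over background limits the values of the 4 untested probes, and of dim probes on the array of mouse 3. The cause of these changes was not tested.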
